A study of Homo sapiens with 4 samples.

Results

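The genes described here are the TCF/LEF transcription factors and a set of WNT feedback genes, measured in the human colorectal carcinoma cell line HCT116. The members were fixed by name as LEF1, TCF7, TCF7L1, TCF7L2, AXIN2, NKD1, NOTUM, RNF43, ZNRF3 and LGR5, and each was read from the probe sets whose gene symbol was exactly that name. Of the 10 genes, 9 had such a probe set, 1 each, among 17958 genes tested; TCF7 was not analysed here. The tested cells received 5-aza-2'-deoxycytidine (decitabine, written 5aza below), a nucleoside analog that replaces cytosine in new DNA and traps DNA methyltransferases, at 1 µM with 1 renewal, and RNA was taken at 72 hours (2 arrays). The vehicle cells were of the same line and were harvested at the same time (2 arrays). The labels do not say whether the arrays of a group came from separate cultures, so the spread behind each p-value may be technical only.

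In WNT signalling, β-catenin is normally marked for destruction by a complex built on AXIN and APC. When it escapes this complex it enters the nucleus and binds TCF/LEF factors, which hold target genes repressed together with TLE proteins and activate them together with β-catenin. Several targets encode inhibitors of the same pathway, so their transcripts are widely used as readouts of its activity, and in the intestine the pathway maintains the crypt stem cells. HCT116 cells carry an activating mutation of the β-catenin gene CTNNB1 and have wild-type APC.

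Values are log2 RMA levels, a scale on which a difference of 1 is a 2-fold change. A gene is said to have risen or fallen where the Benjamini-Hochberg adjusted p over all genes in limma's moderated test was under 0.05. LEF1, AXIN2, NKD1 and NOTUM rose, TCF7L2 fell slightly, and TCF7L1, RNF43, ZNRF3 and LGR5 did not pass the test. The 4 rises among 9 genes stand beside 12.4% of all genes tested that rose, and the 1 fall stands beside 15.6% that fell. The members were chosen with earlier results of these data known, so this comparison is a description and not a test. With a 2-fold minimum added, 2 of the 9 rose, beside 5.05% of all genes, and 0 fell, beside 2.62%. Both 5aza arrays lay above both vehicle arrays for 4 of the 9 genes, beside 26.3% of all genes, and below them for 2, beside 39.5%. The median log2 fold change was 0.41 over the 9 genes and -0.07 over all genes. The median of the 9 is the value of LGR5, which did not pass the test and rested on single arrays. Across all genes 2229 rose and 2794 fell, but centring the arrays on 18 housekeeping genes moved the median of all genes by 0.11 and gave 2668 rises and 1868 falls, so small changes depend on the scaling.

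The sequences upstream of 3 TCF/LEF start sites are shown because these paralogs differed in their response to a drug that lowers DNA methylation, a mark carried mainly by the cytosines of CpG. Each is the 250 bases before a RefSeq start site in GRCh38.p14, 5′ to 3′ on the gene's own strand, with every CpG in capitals. The LEF1 stretch is chr4:108166302-108166551 on the minus strand and lies inside the gene, before a start site 2631 bases downstream of the gene's outermost 5′ end. It belongs to the only window listed for LEF1, so the CpG content at that 5′ end was not read. The TCF7L1 stretch is chr2:85133142-85133391 and the TCF7L2 stretch is chr10:112949997-112950246, both on the plus strand and directly before the first base of the gene.
LEF1: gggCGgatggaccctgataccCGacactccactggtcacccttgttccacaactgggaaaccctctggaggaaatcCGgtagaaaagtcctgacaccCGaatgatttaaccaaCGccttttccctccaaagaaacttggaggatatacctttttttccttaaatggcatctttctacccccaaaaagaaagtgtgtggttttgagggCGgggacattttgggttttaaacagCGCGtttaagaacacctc
TCF7L1: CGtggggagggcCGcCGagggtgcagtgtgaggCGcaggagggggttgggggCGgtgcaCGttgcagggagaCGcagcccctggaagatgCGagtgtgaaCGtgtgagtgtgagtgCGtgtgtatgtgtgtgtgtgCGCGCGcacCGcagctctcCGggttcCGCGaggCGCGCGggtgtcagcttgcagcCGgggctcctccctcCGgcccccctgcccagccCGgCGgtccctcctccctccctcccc
TCF7L2: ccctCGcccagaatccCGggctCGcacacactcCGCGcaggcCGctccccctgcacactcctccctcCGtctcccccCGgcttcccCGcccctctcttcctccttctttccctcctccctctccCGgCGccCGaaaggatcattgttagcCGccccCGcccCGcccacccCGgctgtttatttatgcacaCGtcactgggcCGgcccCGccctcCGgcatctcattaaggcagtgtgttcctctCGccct
The stretches hold 8 CpGs for LEF1, 24 for TCF7L1 and 21 for TCF7L2. Over the full window of 300 bases, which runs to 50 bases past the start site, the counts were 9, 31 and 25, against a median of 14 over 35116 RefSeq windows of that length. The 2 other windows listed for TCF7L2, 176386 and 179024 bases downstream of the gene's 5′ end, held 7 and 5 CpGs. The internal windows of LEF1 and TCF7L2 thus lay below the median window, and the windows at the first base of TCF7L1 and TCF7L2 lay above it. DNA methylation was not measured in this series, and a link between CpG content and response was not tested. The TCF/LEF motif CTTTGAT, searched on both strands, matched none of the 7 windows listed for LEF1, TCF7L1, TCF7L2 and RNF43, and 2.62% of all windows hold it. Its shorter core CTTTG, which is contained in it, matched in 5 of those 7 windows, including that of LEF1 with 1 match, and in 47.5% of all windows.

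Among the transcription factors, LEF1 changed most. LEF1 is a TCF/LEF factor of lymphocytes that is low in normal colon epithelium. Its level was 6.96 and 7.25 on the 5aza arrays, against 4.40 and 4.65 on the vehicle arrays. The groups did not overlap, and the gap of 2.32 between the nearest arrays of the groups was larger than the 0.29 between the 5aza arrays and the 0.24 between the vehicle arrays. The log2 fold change was 2.58 (SE 0.15, adjusted p = 6.39e-05), a 5.99-fold rise with a 95% interval of 4.67 to 7.68. Of all genes tested, 98.9% had a lower log2 fold change. With 1 array left out it lay between 2.44 and 2.73, and it passed the test each time. Without detection calls in the table, it is unknown whether the vehicle level lay above background, and RMA folds from near background are usually compressed.

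TCF7L2, the main TCF factor of intestinal epithelium, moved slightly the other way. Its level was 10.56 and 10.63 on the 5aza arrays, against 11.03 and 10.97 on the vehicle arrays, without overlap. The log2 fold change was -0.40 (SE 0.11, adjusted p = 0.0393), which is 1.32-fold lower. This call was the least stable of the 5. It was lost with housekeeping centring (-0.29, adjusted p = 0.174), with repeated quantile normalization (adjusted p = 0.0528), and without 5aza replicate 1 (adjusted p = 0.0635), vehicle replicate 1 (adjusted p = 0.272) or vehicle replicate 2 (adjusted p = 0.203).

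TCF7L1, a family member known mostly as a repressor, had levels of 8.36 and 8.49 on the 5aza arrays, against 8.53 and 8.51 on the vehicle arrays. The change of -0.09 on the log2 scale did not pass the test (adjusted p = 0.621), and the 95% interval ran from -0.37 to 0.19. The arrays of the groups were separated by only 0.01.

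Because all arrays carry the 3 measured factors together, the shift of LEF1 relative to its paralogs was taken within each array. The log2 difference LEF1 minus TCF7L2 was -3.60 and -3.38 on the 5aza arrays, against -6.62 and -6.33 on the vehicle arrays, a shift of 2.99. The difference LEF1 minus TCF7L1 was -1.40 and -1.24 on the 5aza arrays, against -4.12 and -3.86 on the vehicle arrays, a shift of 2.67. Only the shifts are interpreted, since levels of different probe sets are not on a common scale. In both pairs the groups did not overlap, but the two-sided exact permutation p, raw and adjusted over the 2 pairs, was 0.333, the smallest that 2 arrays against 2 can give.

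**Figure D1:**
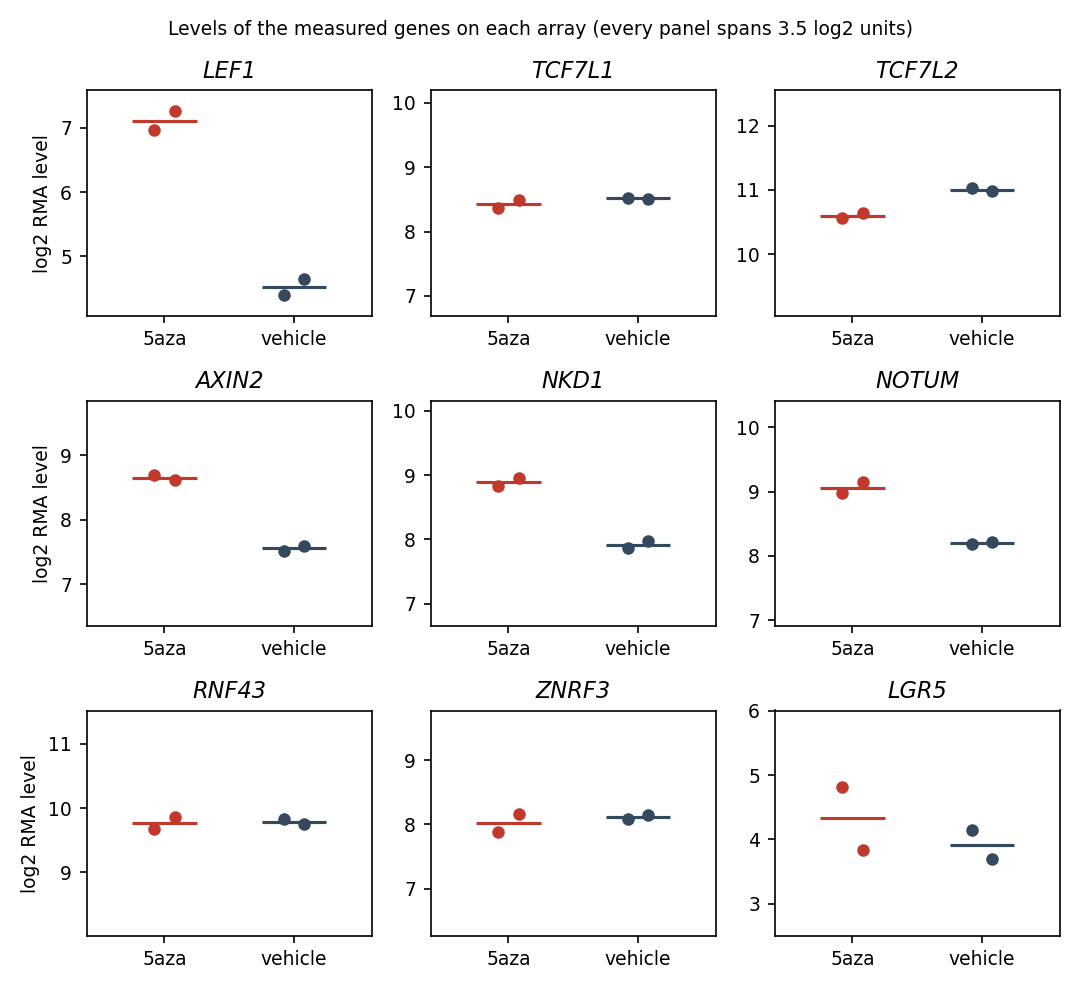
Log2 RMA level of each measured gene on each array, with 5aza arrays on the left and vehicle arrays on the right of every panel; points are arrays, bars are group means of 2 arrays, and each panel spans 3.5 log2 units around its own values. LEF1 shows the widest separation (6.96 and 7.25 in 5aza, against 4.40 and 4.65 in vehicle), and the LGR5 arrays overlap.

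The intracellular feedback inhibitors rose. AXIN2, a scaffold of the β-catenin destruction complex and a classical WNT target, had levels of 8.69 and 8.62 on the 5aza arrays, against 7.51 and 7.60 on the vehicle arrays. The difference between groups exceeded 1 on the log2 scale while the 5aza arrays lay 0.07 apart and the vehicle arrays 0.08 apart. The log2 fold change was 1.10 (SE 0.12, adjusted p = 0.000838), a 2.14-fold rise with a 95% interval of 1.77 to 2.59.

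NKD1, which binds Dishevelled and dampens the WNT signal, had levels of 8.84 and 8.96 on the 5aza arrays, against 7.86 and 7.97 on the vehicle arrays. Both 5aza arrays lay above both vehicle arrays, by at least 0.86. The log2 fold change was 0.98 (SE 0.12, adjusted p = 0.00165), with a 95% interval of 0.70 to 1.27.

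NOTUM, a secreted enzyme that inactivates WNT ligands by removing their lipid, rose by a like amount. Its levels were 8.97 and 9.15 on the 5aza arrays, against 8.18 and 8.21 on the vehicle arrays. The log2 fold change was 0.87 (SE 0.12, adjusted p = 0.00288), with a 95% interval of 0.58 to 1.16. With 1 array left out, AXIN2 ranged from 1.06 to 1.14, NKD1 from 0.92 to 1.04 and NOTUM from 0.78 to 0.96, and all 3 passed the test each time. A test without pooled variance called none of the 9 genes, and the adjusted p was then 0.0963 for LEF1, 0.0867 for AXIN2, 0.101 for NKD1 and 0.114 for NOTUM.

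The feedback genes that act at the receptor did not pass the test. RNF43, a ubiquitin ligase that removes Frizzled receptors from the cell surface, had levels of 9.67 and 9.86 on the 5aza arrays, against 9.83 and 9.75 on the vehicle arrays. The arrays overlapped, the log2 fold change was -0.02 (SE 0.13, adjusted p = 0.920), and the 95% interval of -0.32 to 0.27 does not reach the changes of AXIN2, NKD1 or NOTUM. ZNRF3, its paralog with the same role, had levels of 7.88 and 8.16 on the 5aza arrays, against 8.09 and 8.14 on the vehicle arrays. Its arrays overlapped too, with a change of -0.09 on the log2 scale (SE 0.14, adjusted p = 0.660) and a 95% interval of -0.42 to 0.23. The signs of both changes turned with housekeeping centring and without 5aza replicate 1.

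LGR5, the R-spondin receptor that marks intestinal stem cells, did not pass the test and varied most between arrays. Its levels were 4.81 and 3.84 on the 5aza arrays, against 4.15 and 3.69 on the vehicle arrays. The 5aza arrays lay 0.97 apart, the widest spread within a group among the 9 genes, and the groups overlapped. The log2 fold change was 0.41 (SE 0.31, adjusted p = 0.376) with a 95% interval of -0.33 to 1.15. It rested on single arrays: without 5aza replicate 2 it was 0.90 and passed the test (adjusted p = 0.0224), and without 5aza replicate 1 it was -0.08.

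**Figure D2:**
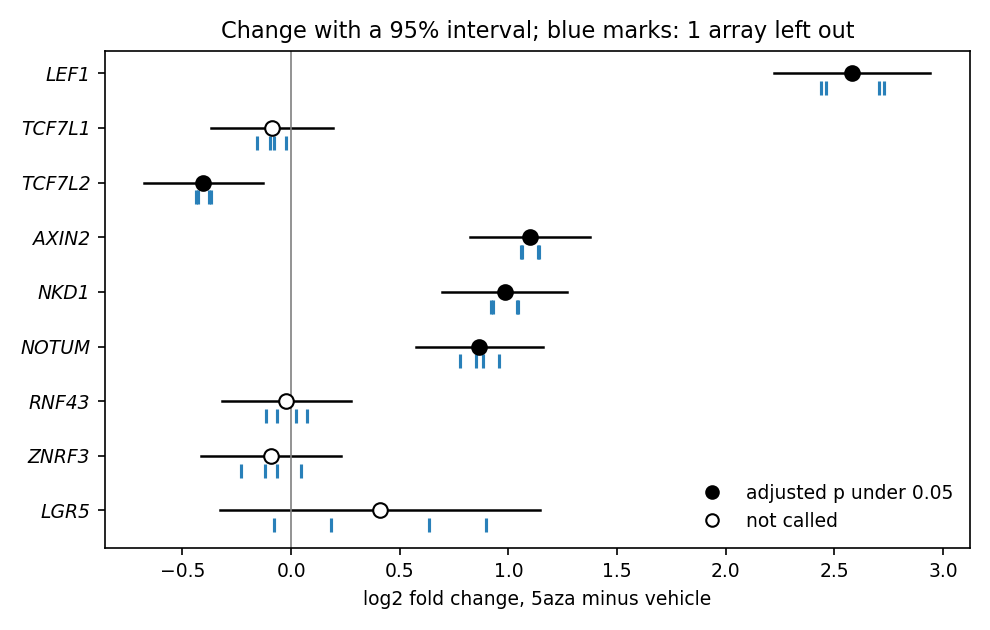
Log2 fold change, 5aza minus vehicle, of the 9 measured genes with its 95% interval from limma; filled points have an adjusted p under 0.05, and blue marks give the value with 1 array left out. LEF1 (2.58) stands to the right of AXIN2 (1.10), NKD1 (0.98) and NOTUM (0.87), TCF7L2 (-0.40) lies to the left of 0, and the blue marks of LGR5 run from -0.08 to 0.90.

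Relatives of the feedback genes, listed together with the R-spondin ligands, went both ways. Of 8 genes, 2 rose and 1 fell, beside 12.4% and 15.6% of all genes. Their median log2 fold change was 0.08. LGR6, an R-spondin receptor related to LGR5, rose to 5.45 and 5.43 on the 5aza arrays, against 4.07 and 4.50 on the vehicle arrays (log2 fold change 1.16, SE 0.16, adjusted p = 0.00265). LGR4, the more broadly expressed receptor of this family, fell to 7.45 and 7.30 on the 5aza arrays, against 7.988 and 8.005 on the vehicle arrays (log2 fold change -0.62, SE 0.12, adjusted p = 0.00979). RSPO4, an R-spondin ligand, rose by 0.75 on the log2 scale (SE 0.15, adjusted p = 0.0114). LGR4 was not called without vehicle replicate 1 (adjusted p = 0.0747) or vehicle replicate 2 (adjusted p = 0.0782), and RSPO4 not without vehicle replicate 2 (adjusted p = 0.0929).

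In the destruction complex and β-catenin list, none of 16 genes measured passed limma's test. Before adjustment, 4 were higher and 2 lower at p under 0.05, beside 16.6% and 23.0% of all genes, and the test without pooled variance called 0. The log2 fold changes ran from -0.35 to 0.40. CTNNB1, which encodes β-catenin and is named outside the naming rule, had levels of 12.39 and 12.35 on the 5aza arrays, against 12.34 and 12.16 on the vehicle arrays (log2 fold change 0.12, SE 0.12, adjusted p = 0.503). Under other settings up to 3 genes of this list were called higher and up to 1 lower. Protein levels of β-catenin were not measured.

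Of 21 cofactors of the TCF/LEF factors, 5 rose and 4 fell, beside 12.4% and 15.6% of all genes. Their median log2 fold change was 0.17. The rises were of PYGO1, a chromatin adaptor of the β-catenin complex (0.71 on the log2 scale, adjusted p = 0.00500), the acetyltransferases CREBBP (0.63, adjusted p = 0.0106) and EP300 (0.61, adjusted p = 0.00997), and the corepressors TLE4 (0.58, adjusted p = 0.0179) and TLE3 (0.43, adjusted p = 0.0463). The corepressor TLE2 fell, with levels of 7.19 and 7.16 on the 5aza arrays, against 8.16 and 8.25 on the vehicle arrays (log2 fold change -1.02, SE 0.12, adjusted p = 0.00112). The other falls were of TBL1X, a component of corepressor complexes that also binds β-catenin (-0.60, adjusted p = 0.0111), the corepressor CTBP1 (-0.54, adjusted p = 0.0147) and CTNNBIP1, an inhibitor of the binding of β-catenin to TCF factors (-0.46, adjusted p = 0.0280). Members of the TLE family thus changed in both directions. Housekeeping centring ended the calls of CTBP1 (adjusted p = 0.0589) and CTNNBIP1 (adjusted p = 0.0974), and CTNNBIP1 was also lost with repeated quantile normalization (adjusted p = 0.0512). TLE3 was lost without 5aza replicate 2, where its log2 fold change was 0.33. The calls of TLE3, TLE4, EP300, TBL1X, CTBP1 and CTNNBIP1 were also lost without vehicle replicate 1, and likewise without vehicle replicate 2. CREBBP was lost without vehicle replicate 1 and PYGO1 without vehicle replicate 2.

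Among 20 other WNT target genes, 4 rose and 4 fell, beside 12.4% and 15.6% of all genes, and the median log2 fold change was -0.01. SOX9, a crypt transcription factor (0.64, adjusted p = 0.00791), the cyclin CCND1 (0.56, adjusted p = 0.0139), the transcription factor ETS2 (0.48, adjusted p = 0.0468) and ASCL2, a stem cell transcription factor (0.41, adjusted p = 0.0398), rose. MMP7, a matrix metalloproteinase, fell most, to 4.48 and 4.35 on the 5aza arrays, against 6.39 and 6.21 on the vehicle arrays (log2 fold change -1.88, SE 0.13, adjusted p = 0.000124). TNFRSF19, a TNF receptor family member (-0.73, adjusted p = 0.0138), the adhesion receptor CD44 (-0.50, adjusted p = 0.0206) and SOX4 (-0.45, adjusted p = 0.0324) fell as well. CCND1 was not called when its probe sets were averaged (0.39, adjusted p = 0.121), and ASCL2 was not called with repeated quantile normalization (adjusted p = 0.0659), with an intensity trend in the variance (adjusted p = 0.0653) or without 5aza replicate 2 (adjusted p = 0.0707). Housekeeping centring ended the calls of CD44 (adjusted p = 0.0873) and SOX4 (adjusted p = 0.139), ETS2 was lost without 5aza replicate 2 (adjusted p = 0.120), and SOX4 was also lost without 5aza replicate 1 (adjusted p = 0.0628). The calls of SOX9, CCND1, ETS2 and ASCL2 were also lost without vehicle replicate 1, and likewise without vehicle replicate 2. So were those of CD44 and SOX4, and TNFRSF19 was lost without vehicle replicate 1. With 1 array left out, SOX9 ranged from 0.59 to 0.70 on the log2 scale. Over these 4 lists, 65 genes were measured. With all arrays 11 of them rose and 9 fell, beside 12.4% and 15.6% of all genes. Fewer were called in either direction without vehicle replicate 1 or without vehicle replicate 2. With 1 array left out, LGR6 ranged from 0.95 to 1.37, TLE2 from -1.07 to -0.98 and MMP7 from -1.98 to -1.79. LGR6 and MMP7 were among the dimmest 33.3% of genes by mean level.

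**Figure D3:**
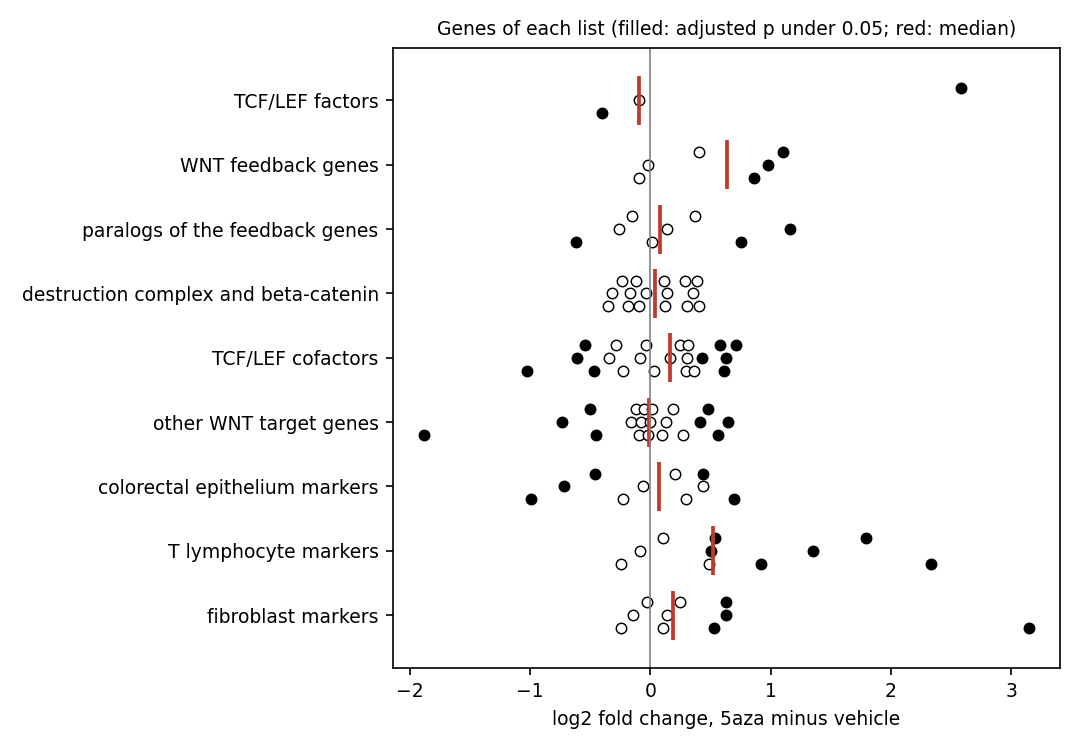
Log2 fold change, 5aza minus vehicle, of every measured gene in the TCF/LEF, feedback, pathway and marker lists; each point is a gene, filled where the adjusted p was under 0.05, and the red bar is the median of the list. The feedback genes have a median of 0.64, which falls between NOTUM (0.87) and LGR5 (0.41). The other WNT target genes are spread on both sides of their median of -0.01, and the T lymphocyte markers have a median of 0.52.

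By a rule based on the Euclidean distance over 4 arrays between log2 values minus the vehicle mean, the genes whose profile was nearest to that of LEF1 were ENG, which encodes endoglin (distance 0.08), IL2RG, the common cytokine receptor chain of lymphocytes (0.11), and KIF1A, a neuronal kinesin (0.15). Their log2 fold changes, which the rule itself makes close to that of LEF1, were 2.53 for ENG, 2.57 for IL2RG and 2.65 for KIF1A. The likeness rests on the same 4 arrays as the change of LEF1.

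Since LEF1 is also a lymphocyte gene, markers of other cell types were read beside it. The marker lists were chosen with earlier results of these data known. Of 10 T lymphocyte markers, 6 rose and 0 fell in limma's test, beside 12.4% and 15.6% of all genes. Before adjustment, 7 were higher and 0 lower at p under 0.05, beside 16.6% and 23.0% of all genes. The test without pooled variance called 0. Their mean level was 5.43 and 5.44 on the 5aza arrays, against 4.61 and 4.72 on the vehicle arrays. The rises were of LCK, a T cell kinase (log2 fold change 2.33), CD3D (1.79), CD5 (1.35), CD3E (0.92), CD3G (0.54) and CD247 (0.51). CD4 did not pass the test (0.49, adjusted p = 0.0507). CD8A went the other way, with 5.52 and 5.53 on the 5aza arrays, against 5.76 and 5.78 on the vehicle arrays. Its change did not pass the test (-0.25, adjusted p = 0.153). The pan-leukocyte gene PTPRC had levels of 3.05 and 3.20 on the 5aza arrays, against 2.93 and 3.11 on the vehicle arrays, and CD2 had 4.01 and 3.71, against 3.94 and 3.95; neither passed the test. Of 10 fibroblast markers 4 rose and 0 fell in limma's test, beside the same shares of all genes. Before adjustment the counts were again 4 and 0, and 0 were called without pooled variance. Their mean level was 5.21 and 5.26 on the 5aza arrays, against 4.73 and 4.75 on the vehicle arrays, and their median log2 fold change was 0.19. THY1, a surface glycoprotein, had the largest change of the list (log2 fold change 3.15). The other rises were of ACTA2 (0.63, adjusted p = 0.00933), COL1A1 (0.63, adjusted p = 0.0151) and PDGFRA (0.53, adjusted p = 0.0395). COL1A2, COL3A1, DCN, LUM, PDGFRB and FAP did not pass the test. Of 10 colorectal epithelium markers 2 rose and 3 fell, beside 12.4% and 15.6% of all genes, with a median log2 fold change of 0.07. The rises were of CDX2, an intestinal transcription factor (0.70, adjusted p = 0.0344), and the keratin KRT18 (0.44, adjusted p = 0.0330). The falls were of the adhesion molecule EPCAM (-0.72, adjusted p = 0.00495), CLDN7 (-0.46, adjusted p = 0.0255) and ELF3 (-0.99, adjusted p = 0.00198). The levels of VIL1 and GPA33 lay between 4.22 and 4.79 on all arrays. The part of other cell types in the LEF1 change was not tested, and a rise per cell cannot be told apart from more cells with the transcript.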

How the data were processed

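Total RNA of 4 samples was measured on Affymetrix arrays, 1 sample per array. The deposited table holds log2 values that the authors made with RMA in Affymetrix Expression Console, per the submitters' processing notes; its version, settings and genome build are not stated there. RMA normalizes the arrays to a common distribution, which hides any change in total RNA per cell. Array medians differed by group: 5.84 on both 5aza arrays, against 5.73 and 5.72 on the vehicle arrays. Pearson's r over 33297 probe sets was 0.992 between 5aza arrays and 0.995 between vehicle arrays. The number of arrays, 2 in each group, limits the precision.

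A platform annotation table gave 1 gene symbol for 19181 probe sets, several for 2055 and did not list 12061. The brightest probe set on average represented each of 17958 genes; no filter was applied. 5aza arrays were compared with vehicle arrays in limma 3.58.1 (R 4.3.3; lmFit and eBayes without covariates); two-sided p-values were adjusted by Benjamini-Hochberg over all genes, and the fit was tested on simulated data. The members, the pathway and marker lists and the naming rule were chosen with earlier results of these data known. The rule named all measured members, in each pathway list every called gene where at most 5 were called in a direction and otherwise the 4 with the smallest p, and the 3 genes nearest to LEF1. Alternatives changed the scaling, the filter on dim genes, the probe set rule, the variance model, the replicate block, the fold minimum and the arrays included. Sequences are from RefSeq (GRCh38.p14); promoter windows matched 4 of the 9 measured genes by symbol.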

Additional observations from a re-analysis of the deposited data

How the results depend on the processing

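LEF1, AXIN2, NKD1 and NOTUM kept their rise under 11 of 12 alternative settings, the exception being the test without pooled variance, which called 0 members higher and 0 lower, 1 gene higher and 0 lower over all genes, and 0 other pathway genes in either direction. Averaging a gene's probe sets or testing each on its own could not change the members' log2 values, since each had 1 probe set. A 2-fold minimum, which is not counted among the 12, left 2 members higher and 0 lower, and 907 genes higher and 470 lower. The count of members called lower fell to 0 with housekeeping centring and with repeated quantile normalization. Housekeeping centring gave 5 falls among the other pathway genes, and turned TCF7L1 to 0.0235, RNF43 to 0.0912 and ZNRF3 to 0.0202 on the log2 scale; repeated quantile normalization turned RNF43 to 0.0365. With 1 array left out, an arm of 1 array is assumed to vary like the other group. The counts then ran from 4 to 5 members higher and 0 to 1 lower, 1267 to 2530 genes higher and 1196 to 3401 lower, and 2 to 14 other pathway genes higher and 2 to 10 lower. Without vehicle replicate 1 there were 1267 rises and 1196 falls over all genes, and without vehicle replicate 2 there were 1335 and 1237. RNF43 ran from -0.116 to 0.0712 (0.0712 without 5aza replicate 1, 0.0201 without vehicle replicate 1), ZNRF3 from -0.233 to 0.0462 (0.0462 without 5aza replicate 1), LGR5 from -0.0768 (without 5aza replicate 1) to 0.895, and the shift of LEF1 from 2.54 to 2.80 against TCF7L1 and from 2.84 to 3.13 against TCF7L2. With the replicate block, 4 members rose and 1 fell, as without it, and 16 other pathway genes rose and 11 fell. The correlation of deviations between same-numbered arrays was 0.27 across genes, and the labels do not say that a number marks a shared culture. LGR5 was removed by the filter on the dimmest 33.3% of genes. The same filter removed LGR6, TLE4, ASCL2, MMP7 and TNFRSF19 among the other named pathway genes. Causes of these differences were not tested; settings with fewer arrays have fewer residual degrees of freedom.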

Other observations

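The Dishevelled genes, which relay the WNT signal from the receptor to the destruction complex and were picked after their values were seen, gave like values in the 3 paralogs. DVL1 had levels of 8.83 and 9.08 on the 5aza arrays, against 8.61 and 8.54 on the vehicle arrays (log2 fold change 0.38). DVL2 and DVL3 had log2 fold changes of 0.29 and 0.35. In each of the 3 genes both 5aza arrays lay above both vehicle arrays, as they did for 26.3% of all genes. None passed limma's test (adjusted p = 0.0732 for DVL1, 0.110 for DVL2 and 0.0650 for DVL3). In the same list, CSNK1D (-0.35, adjusted p = 0.0634) and AMER1 (-0.32, adjusted p = 0.0799) went the other way and did not pass either. Of its 16 genes, 8 had both 5aza arrays above both vehicle arrays. For 3 they lay below, beside 39.5% of all genes.

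TNIK, a kinase that activates TCF target genes, was at a log2 fold change of 0.37 and also missed the threshold (adjusted p = 0.0549). MYC, a widely cited WNT target, had 11.90 and 12.14 on the 5aza arrays, against 11.92 and 12.12 on the vehicle arrays.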
